A study of Rattus norvegicus with 31 samples.

Results

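Glycogen is the branched glucose polymer that muscle fibres store as a rapid fuel, and 5 genes of its synthesis and breakdown were followed in rat gastrocnemius, a calf muscle of mostly fast fibres. Gys1 encodes muscle glycogen synthase, Gbe1 the branching enzyme, Pygm muscle glycogen phosphorylase, and Phka1 and Phkg1 the muscle alpha (regulatory) and gamma (catalytic) subunits of phosphorylase kinase. They were chosen with earlier results of these data known and found by symbol in the deposited annotation. All 5 were among the 11289 genes listed and the 10082 tested. The muscles came from 31 female Sprague Dawley rats, 7 months old and fed chow, each giving 1 library. The groups were Ucp1 knockouts kept for 14 days at 4 °C (n = 8), controls, titled WT, kept for 14 days at 4 °C (n = 8), Ucp1 knockouts kept at room temperature (n = 7) and controls kept at room temperature (n = 8). Ucp1 is the uncoupling protein with which brown fat makes heat, so the design asks how muscle answers cold when that protein is missing. The labels do not say how the Ucp1 allele was made, and with Ucp1 not analysed here the genotype of each rat is taken from its label. Whether the 31 rats are independent in litter or housing is not stated, and p-values measure the spread between them.

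As background, glycogen synthase extends linear chains from UDP-glucose onto the primer protein glycogenin, and the branching enzyme moves short stretches to make branch points. Phosphorylase releases glucose 1-phosphate from chain ends, and phosphorylase kinase switches it on by phosphorylation when calcium rises in contraction or when adrenaline raises cyclic AMP. In muscle, which lacks the enzyme that frees glucose for export, the product feeds glycolysis within the fibre. Fast fibres rely on this pathway in short, intense work. Glycogen synthase, phosphorylase and phosphorylase kinase are also set by phosphorylation and allosteric ligands, which mRNA counts do not show.

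Levels are CPM, read counts scaled by TMM to a common library total, and a change is a log2 fold change from edgeR's quasi-likelihood test with its standard error (SE). A gene was called at an adjusted p (Benjamini-Hochberg over the 10082 genes) under 0.05. Reads were tags near the 3' end of each transcript, and total counts ran from 6.56 to 11.9 M per library. All 6 measured skeletal muscle markers were present in every library. Control rats 1 and 2 at room temperature stood apart from the other 29 libraries on the second principal component, with scores of -62.3 and -79.8, while all others lay between -9.75 and 17.2. Some results that rest on them are given with and without them. All other values, marker sums among them, include these 2 rats unless stated. Muscle is a mixture of fibre and cell types, so fewer cells of a type and less RNA per cell cannot be told apart.

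The 5 genes were chosen with earlier results known, so the shares of all genes given below are background and not a test of the set. In knockout rats, 2 of the 5 genes were higher in the cold, Gbe1 and Phka1, against 1.02% of all tested genes called higher and 1.38% called in either direction. Both also moved up in controls without passing, and both passed when the cold change was averaged over the genotypes. With 1 surrogate variable in the model Gbe1 passed in controls as well. Gys1, Pygm and Phkg1 were called in none of the comparisons, although Phkg1 passed, lower, for cold in controls and over both genotypes when a surrogate variable was added. No gene of the 5 was called between knockouts and controls at either temperature. For 0 of the 5 did the groups separate without overlap, against 0.546% of tested genes for cold in knockouts, 0.436% for cold in controls, 0.00992% for genotype in the cold and 0.0595% for genotype at room temperature.

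Promoter windows of the 2 genes that rose are shown because both were called in the cold. They are the 250 bases before the start that the RefSeq promoter table of build GRCr8 uses for each gene, at chr11:22181026-22181275 on the plus strand for Gbe1 and at chrX:71778122-71778371 on the minus strand for Phka1. That start lies inside the outermost span annotated for both genes, so 82 of the 250 bases for Gbe1 and all 250 for Phka1 fall within the annotated locus. Capitals mark every match, on either strand, to any of 6 motifs: the E-box CANNTG bound by basic helix-loop-helix factors, the CCAAT box, the GC box GGGCGG, the TATA box written as TATAAA, the nuclear receptor half-site AGGTCA and the MEF2 consensus. CAGCTG, counted as well, is 1 form of CANNTG.
Gbe1: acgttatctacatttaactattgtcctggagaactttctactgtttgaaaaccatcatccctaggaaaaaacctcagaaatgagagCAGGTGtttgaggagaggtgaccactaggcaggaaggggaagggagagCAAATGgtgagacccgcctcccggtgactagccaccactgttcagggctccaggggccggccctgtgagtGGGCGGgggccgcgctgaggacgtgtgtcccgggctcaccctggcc
Phka1: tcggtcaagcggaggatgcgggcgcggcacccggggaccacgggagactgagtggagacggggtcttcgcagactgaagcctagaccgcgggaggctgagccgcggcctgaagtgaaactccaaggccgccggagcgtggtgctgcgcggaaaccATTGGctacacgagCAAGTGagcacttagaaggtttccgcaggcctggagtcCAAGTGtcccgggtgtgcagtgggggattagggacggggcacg

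CANNTG occurred 2 times in each of these windows. That motif is common, since 65.5% of the 33469 promoters in the table hold it in the same window. Gbe1 held 1 GGGCGG, present in 30.5% of promoters, and no CCAAT. Phka1 held 1 CCAAT, present in 34.0% of promoters and lying here on the opposite strand, and no GGGCGG. The TATA box (held by 12.9% of promoters), the nuclear receptor half-site (14.1%) and the MEF2 consensus (2.96%) were found in neither window, which says only that these letters are not there. The windows of the other 3 genes also held CANNTG, 1 time in Gys1 and 3 times each in Pygm and Phkg1. The form CAGCTG, which 12% of promoters hold, occurred 2 times in Pygm and 1 time in Gys1. A match is a string of letters and not a bound site.

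**Figure D1:**
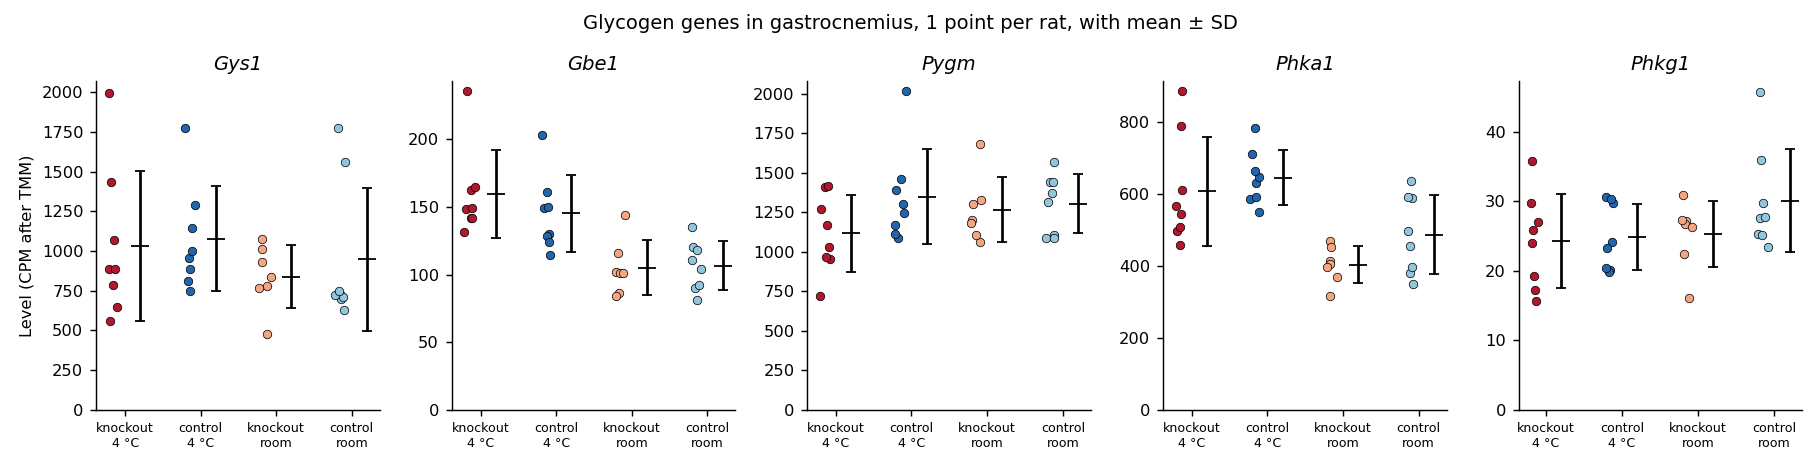
Level of each of the 5 genes in CPM (linear axes from 0, a scale of its own for each gene) in every rat, by group; points are rats and the bars are mean ± SD (n = 8, 8, 7 and 8 from left to right). Gbe1 and Phka1 sit higher in both cold groups than at room temperature, with overlap between groups, and in Gys1 2 room temperature controls stand at 1777 and 1559 CPM above the other 6.

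Gys1, on chromosome 1 (GRCr8, 105051916 to 105071763), makes the linear chains of glycogen and varied more between the rats of each group than the other 4 genes did, by coefficient of variation. In room temperature controls this rested on rats 1 and 2, with 947 ± 451 CPM with them and 706 ± 43.4 CPM without them (SD). Without them Gys1 varied least of the 5 genes in that group. The level of Gys1 ran from 562 through a median of 885 to 1994 CPM in cold knockouts, against 477, 833 and 1074 CPM in room temperature knockouts. These ranges overlapped widely, and only 2 of 8 cold knockouts lay above the highest room temperature knockout. The change of 0.30 ± 0.26 (SE) did not pass (adjusted p = 0.68 by edgeR), and its 95% interval of -0.22 to 0.82 leaves room for a rise or a small fall.

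In cold controls Gys1 ran from 749.6 through 977 to 1774 CPM, against 625.02, 725 and 1777 CPM in room temperature controls. All 8 cold controls were above the room temperature median and none was above the room temperature maximum, which control rat 1 set at 1777 CPM, followed by rat 2 at 1559 CPM. The change was 0.19 ± 0.25 (adjusted p = 0.75). The other 6 room temperature controls lay closely together, between 625.02 and 751 CPM. Without rats 1 and 2 the change was 0.61 in controls (adjusted p = 0.245) and 0.46 over both genotypes (adjusted p = 0.0665), so these 2 rats moved the value by over 1.5 times without changing the call.

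Gbe1, on chromosome 11 (GRCr8, 22181194 to 22446640), puts in the branch points that make glycogen compact and soluble. Cold knockouts held 131, 149 and 236 CPM (lowest, median and highest), against 83.9, 101 and 144 CPM in room temperature knockouts. All 8 cold knockouts were above the room temperature median and 5 were above the highest room temperature knockout, so the groups overlapped at their edges. Means were 159 ± 32.7 CPM in cold knockouts and 105 ± 20.4 CPM in room temperature knockouts (SD, n = 8 and 7), and Gbe1 rose by 0.60 ± 0.14 (1.52-fold; adjusted p = 0.0229 by edgeR).

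Cold controls held 114, 139.8 and 203 CPM of Gbe1, against 81.6, 107 and 135 CPM in room temperature controls. Again all 8 cold rats were above the room temperature median, 4 of them above the highest room temperature control. The change of 0.45 ± 0.14 had an unadjusted p of 0.00243 and an adjusted p of 0.107, so it did not pass over all genes. With 1 surrogate variable in the edgeR model it was 0.48 and passed (adjusted p = 0.0265). Averaged over both genotypes, Gbe1 rose by 0.52 ± 0.10 (adjusted p = 0.00112), where 3.67% of tested genes were called higher and 5.65% in either direction.

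The call of Gbe1 in knockouts ended without room temperature knockout 9, 11, 13 or 14 or cold knockout 29 (changes 0.48 to 0.60, adjusted p 0.0501 to 0.0674), and when only the 15 compared libraries were fitted (0.60, adjusted p = 0.0731). The averaged call held without any single library, at adjusted p 0.000379 to 0.00289.

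Pygm, on chromosome 1 (GRCr8, 213119805 to 213134622), encodes the enzyme that releases glucose 1-phosphate; its loss in people is McArdle disease. It had 721, 1099 and 1415 CPM in cold knockouts, against 1063, 1201 and 1678 CPM in room temperature knockouts. The lowest 4 cold knockouts were below every room temperature knockout, and the upper 4 lay within the room temperature range. The change was -0.18 ± 0.14 (adjusted p = 0.64, 95% interval -0.47 to 0.11).

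Cold controls had 1084, 1273 and 2015 CPM of Pygm, against 1087, 1343 and 1568 CPM in room temperature controls. The top value belonged to cold control 17, and the rest of the 2 groups covered the same range. The change was 0.05 ± 0.14 (adjusted p = 0.891, 95% interval -0.23 to 0.33).

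Phka1, on chromosome X (GRCr8, 71639701 to 71778465), encodes the muscle alpha subunit that holds the catalytic subunit of phosphorylase kinase inactive until it is phosphorylated. Cold knockouts had 458, 555 and 886 CPM, against 318, 406 and 469 CPM in room temperature knockouts. These groups nearly separated: 7 of 8 cold knockouts were above the highest room temperature knockout. Means were 608 ± 151 CPM in cold knockouts and 403 ± 50.8 CPM in room temperature knockouts, and Phka1 rose by 0.59 ± 0.14 (1.51-fold; adjusted p = 0.0301).

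In cold controls Phka1 stood at 549.9, 639 and 783 CPM, against 349, 476 and 637 CPM in room temperature controls. All 8 cold controls were above the room temperature median and 4 above the room temperature maximum. The change was 0.41 ± 0.14 (unadjusted p = 0.00599, adjusted p = 0.159) and did not pass. Averaged over both genotypes Phka1 rose by 0.50 ± 0.10 (adjusted p = 0.00206).

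The call of Phka1 in knockouts ended without room temperature knockout 9, 10, 12, 13, 14 or 15 or cold knockout 24 or 27 (changes 0.50 to 0.61, adjusted p 0.0547 to 0.0704), and when only the 15 compared libraries were fitted (0.59, adjusted p = 0.0899). The averaged call held without any single library (adjusted p 0.00139 to 0.00628).

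Phkg1, on chromosome 12 (GRCr8, 32474926 to 32490657), encodes the catalytic subunit that phosphorylates phosphorylase, and it had the fewest reads of the 5, with 158 to 363 counts per library. It stood at 15.6, 24.9 and 35.8 CPM in cold knockouts, against 16.1, 26.7 and 30.9 CPM in room temperature knockouts. The ranges were nearly the same, and the change was -0.06 ± 0.17 (adjusted p = 0.943, 95% interval -0.41 to 0.29).

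Phkg1 had 19.8, 23.7 and 30.6 CPM in cold controls, against 23.3, 27.6 and 45.8 CPM in room temperature controls, with 4 of 8 cold controls below every room temperature control. The change of -0.28 ± 0.17 did not pass (adjusted p = 0.444). As with Gys1, room temperature control rats 1 and 2 were highest, at 45.8 and 35.9 CPM, and without them the change was -0.09 (adjusted p = 0.806). With 1 surrogate variable in the model it was -0.38 and passed (adjusted p = 0.0384), as did the change over both genotypes (-0.24, adjusted p = 0.0367; -0.17, adjusted p = 0.482 without the surrogate variable). In cold knockouts the alpha subunit gene passed and the gamma subunit gene did not; the difference between the 2 genes was not tested.

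In RefSeq's GRCr8 annotation the Phkg1 locus overlaps that of Sumf2, the Phka1 locus holds Klhdc2l1 and Rps27a-ps3, and those of Gbe1 and Pygm overlap uncharacterised loci. The strand setting of the counting is not given in the sources used here, so reads of such neighbours may be included. The Gys1 locus overlaps no other annotated gene.

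**Figure D2:**
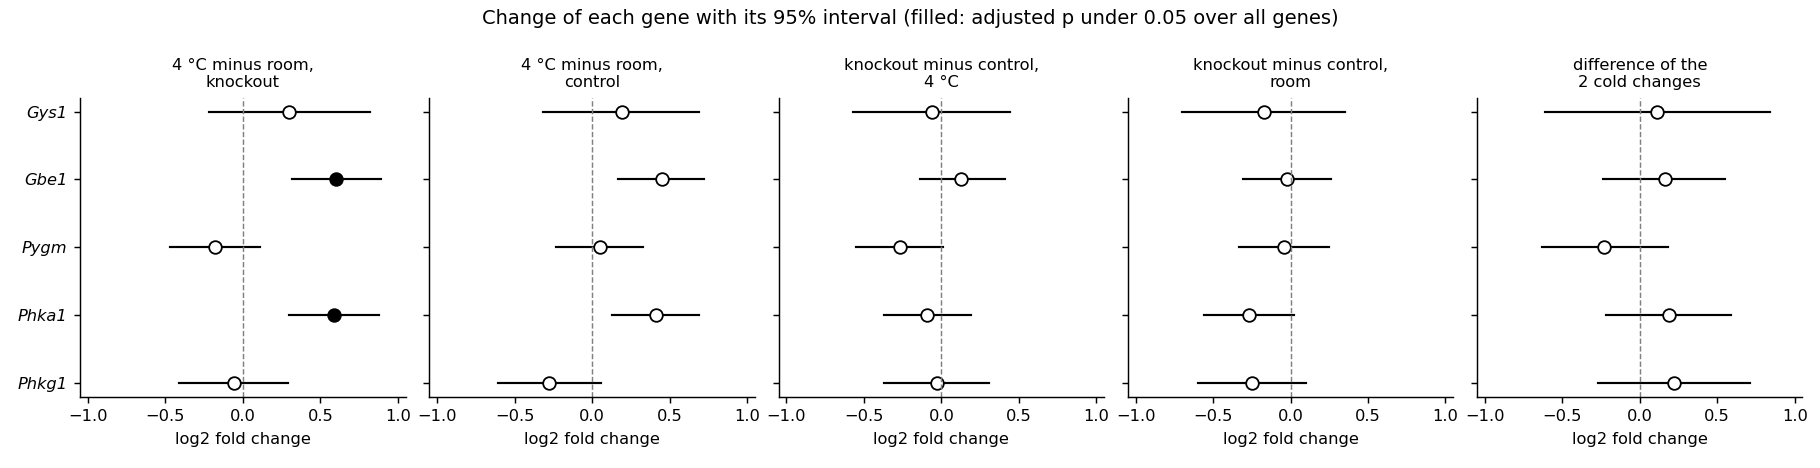
Fitted log2 fold change of each gene with its 95% interval (horizontal axis) in 5 comparisons; filled points passed at adjusted p under 0.05 over all genes. Gbe1 (0.60) and Phka1 (0.59) are filled in knockouts exposed to cold, and every interval for the knockout comparisons and for the difference between the cold changes includes 0.

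In controls alone, 0 of the 5 genes were called for cold by edgeR and 0 by DESeq2, where 0.853% of tested genes were called by edgeR. At an unadjusted p under 0.05 there were 2, Gbe1 and Phka1, against 14.2% of tested genes. With 1 surrogate variable in the model edgeR called 2 of the 5 in controls, Gbe1 higher and Phkg1 lower, where 382 of all genes were called. A call in knockouts and not in controls does not show that the genotypes differed, and the test of the difference between the cold changes called 0 of 5 by edgeR or DESeq2 (0% of all genes by edgeR), with 0 at an unadjusted p under 0.05 (7.31% of all genes). That difference, knockout minus control, was 0.16 ± 0.19 for Gbe1 (95% interval -0.24 to 0.55) and 0.19 ± 0.20 for Phka1 (-0.22 to 0.59). It was -0.23 ± 0.20 for Pygm (-0.63 to 0.18) and 0.22 ± 0.24 for Phkg1 (-0.27 to 0.71). For Gys1 it was 0.11 ± 0.36 (-0.61 to 0.84) and -0.30 without control rats 1 and 2.

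Genotype was compared at each temperature. In the cold, 0 of 5 genes were called between knockouts and controls by edgeR or DESeq2, with 0 at an unadjusted p under 0.05 (6.28% of tested genes), and 0.00992% of tested genes were called by edgeR. Pygm showed the largest difference of the 5, -0.27 ± 0.14 (adjusted p = 0.815, 95% interval -0.55 to 0.01), with means of 1117 ± 243 CPM in cold knockouts and 1348 ± 299.8 CPM in cold controls (SD, n = 8 each). At room temperature 0 of 5 were called as well by edgeR or DESeq2, with 0 at an unadjusted p under 0.05 (7.06% of tested genes) and 0% of tested genes called by edgeR. Phka1 was at -0.27 ± 0.14 (adjusted p = 0.70, 95% interval -0.56 to 0.02), with 403 ± 50.8 CPM in knockouts and 487 ± 109 CPM in controls (SD, n = 7 and 8). All 7 room temperature knockouts were below the control median of Phka1. The comparisons share groups: the room temperature knockouts enter both this value and the cold change of knockouts.

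By group mean, Gbe1 stood at 159, 145, 105 and 107 CPM in cold knockouts, cold controls, room temperature knockouts and room temperature controls. The genotypes at 1 temperature did not differ beyond their spread. Phka1 stood at 608, 646, 403 and 487 CPM in the same groups, with the same split by temperature. Group means of Gys1 (1032, 1077, 839 and 947 CPM), Pygm (1117, 1348, 1265 and 1303 CPM) and Phkg1 (24.3, 24.8, 25.3 and 30.04 CPM) had ranges of mean ± SD that overlapped between all groups.

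Markers of slow fibres were also higher in the cold, as Gbe1 and Phka1 were. Of 10 slow fibre markers measured, 4 were higher in cold knockouts (Myh7, Tnni1, Myoz2 and Atp2a2) and 5 in cold controls (Myh7, Tnnt1, Tpm3, Myoz2 and Atp2a2). Of all tested genes, 1.38% were called in cold knockouts and 0.853% in cold controls, the shares to set beside the marker calls in each genotype. At an unadjusted p under 0.05 the shares were 14.3% in cold knockouts and 14.2% in cold controls. Over both genotypes 5.65% of all tested genes were called, and 3.67% were called higher. Their summed level was 13355 to 30964 CPM in cold knockouts against 8618 to 14643 CPM in room temperature knockouts, and 18555 to 25078 CPM in cold controls against 6246 to 16775 CPM in room temperature controls. None was at 0 in any library. Of 8 fast fibre markers 0 were called in either genotype by edgeR (at an unadjusted p under 0.05, 3 in knockouts and 1 in controls), with sums of 81531 to 158932 CPM in cold knockouts against 94211 to 135654 CPM in room temperature knockouts, and 115969 to 184131 CPM in cold controls against 102195 to 154062 CPM in room temperature controls. White adipocyte markers rose in cold knockouts in 1 of 8 cases (Retn), with sums of 448 to 1207 CPM against 358 to 562 CPM in room temperature knockouts, and in 0 of 8 cases in cold controls, with 389 to 712 CPM against 134 to 675 CPM in room temperature controls, where 3 of the 8 were at 0 in some library. Leukocyte markers rose in 1 of 7 cases in cold knockouts (177 to 280 CPM against 135 to 230 CPM at room temperature) and in 2 of 7 in cold controls (154 to 322 CPM against 58.6 to 196 CPM), with none at 0. Of 4 erythrocyte marker identifiers 1 rose in cold knockouts (Alas2, 1.36 ± 0.34, adjusted p = 0.0346), with sums of 444 to 2018 CPM against 254 to 1079 CPM at room temperature. By edgeR 0 rose in cold controls (2 were higher at an unadjusted p under 0.05), with 467 to 1082 CPM against 336 to 659 CPM at room temperature, where 1 marker was at 0 in some library; over both genotypes 3 of 4 rose. Of 5 endothelial markers 1 fell in cold controls (Cdh5, -0.64 ± 0.16, adjusted p = 0.0476), with sums of 82.4 to 130.1 CPM against 97.4 to 219 CPM at room temperature. In cold knockouts Cdh5 was at -0.54 ± 0.17 (adjusted p = 0.0924), with sums of 76.5 to 150.3 CPM against 82.4 to 157 CPM, and no endothelial marker was at 0. The mitochondrial share of reads averaged 9.43% ± 1.59 in cold knockouts against 12.4% ± 1.59 in room temperature knockouts, and 10.3% ± 0.989 in cold controls against 12.5% ± 1.15 in room temperature controls (SD). The part of fibre type, other cell types or the mitochondrial share in the change of Gbe1 and Phka1 was not tested.

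Across the 31 rats the log2 level of Gbe1 went with the slow marker sum (Pearson r = 0.56, Spearman rho = 0.62), but within groups, after centring on each group's mean, r was 0.02. For Phka1, r was 0.38 over all rats (rho = 0.50) and -0.30 within groups. Over all rats, r with the fast marker sum was 0.48 for Phka1 and -0.19 for Gbe1. With the fast marker sum, within groups, r was 0.67 for Gys1, 0.69 for Pygm and 0.81 for Phkg1, against -0.55 for Gbe1 and 0.38 for Phka1. All these points share libraries and scaling, and the values describe these rats only.

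**Figure D3:**
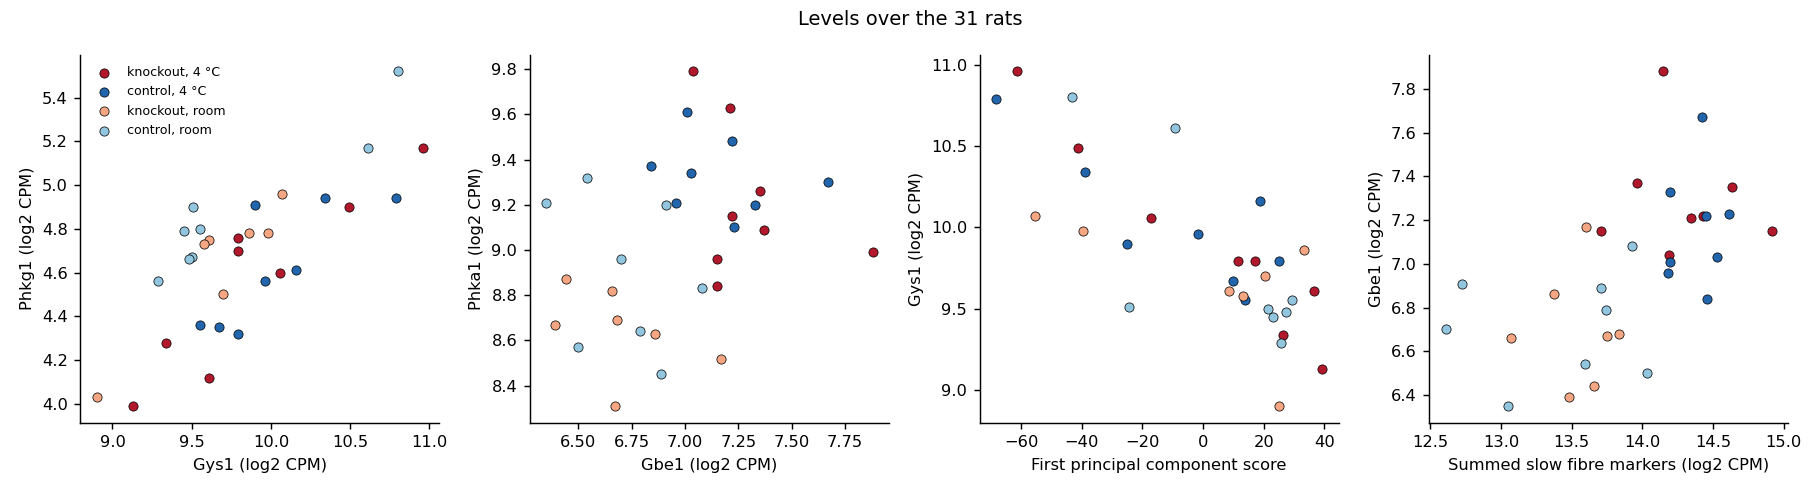
Log2 levels over the 31 rats, coloured by group: Phkg1 against Gys1, Phka1 against Gbe1, Gys1 against the score on the first principal component, and Gbe1 against the summed slow fibre markers (log2 CPM). Gys1 and Phkg1 vary together (r = 0.76), Gbe1 and Phka1 are both higher in the cold groups but do not follow each other within groups (r = -0.33 after centring), and Gys1 falls along the component (r = -0.79).

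The 5 genes did not vary as 1 unit from rat to rat. Within groups Gys1 and Phkg1 went together most closely (r = 0.89 after centring; 0.76 over all 31 rats), followed by Gys1 with Pygm (0.63) and Pygm with Phkg1 (0.59). The 2 genes that rose in the cold did not follow each other within groups (r = -0.33), although both were higher in the cold rats (r = 0.33 over all rats). Gbe1 also ran against Phkg1 (-0.42 within groups). Gys1 (r = -0.79) and Phkg1 (r = -0.69) followed the first principal component, which held 35.3% of the variance of all genes, whereas Gbe1 (0.16) and Phka1 (0.00) did not.

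Candidates for likeness were the 6688 named genes tested whose mean reached 5 CPM, and those closest to each member by Pearson r over the 31 rats are given. For Gys1 they were Fem1a (r = 0.942), Iqsec2 (0.936) and Spsb3 (0.930), with nearly the same values within groups (0.956, 0.936 and 0.934). For Pygm they were Aldoa, the glycolytic enzyme aldolase A (0.871), Hoxc10 (0.862) and Tnnt3, the fast troponin T (0.773). For Phkg1 they were Pgam2, the muscle phosphoglycerate mutase (0.897), Ppm1j (0.892) and Slc16a3, the lactate exporter MCT4 (0.883). For Gbe1 likeness was weaker, with Pmepa1 (0.743), Synj2 (0.742) and Tmem38b (0.740), and it fell within groups to 0.578, 0.485 and 0.471. For Phka1 the closest were Ttc7a (0.749) and Ptges3l (0.726), with 0.632 and 0.635 within groups.

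Other genes of the pathway were taken from 8 lists, of which 45 gene identifiers (44 genes, with Calm2 listed under 2 identifiers) were tested. In cold knockouts 1 of the 45 was called, lower, against 1.38% of all tested genes (4 were called by DESeq2, and 13 had an unadjusted p under 0.05, against 14.3% of all tested genes), with a median log2 change of 0.05 against 0.02 for all genes. In cold controls 0 were called by edgeR, against 0.853% of all tested genes (1 by DESeq2, and 6 at an unadjusted p under 0.05, against 14.2%), with a median of 0.02 against -0.03 for all genes. DESeq2 called more of all genes than edgeR for cold in each genotype, as given at the end. The edgeR shares therefore do not apply to the DESeq2 counts. Averaged over genotypes, edgeR called 3 of the 45 higher, against 3.67% of all tested genes, and 1 lower, with 5.65% of all tested genes called in either direction. Without control rats 1 and 2 at room temperature, 3 were higher (Prkaa1, Prkab1 and Slc2a4) and 2 lower (Prkaa2 and Ppp1r3a) in cold knockouts. Over both genotypes 5 were then higher (the same 3 with Prkaca and Phkg2) and the same 2 lower. That fit also called more of all genes for cold in knockouts, as given at the end, so the shares above do not apply to it. Over both genotypes the 5 alternative fits, that fit among them, called 569 to 1268 of all genes. The share of all genes called by that fit alone is not given here. Its counts are therefore not read as an excess among the pathway genes. Between genotypes, and for the difference between the cold changes, 0 were called by edgeR and 0 by DESeq2. At an unadjusted p under 0.05 there were 10 in the cold (6.28% of all tested genes), 4 at room temperature (7.06%) and 8 for the difference (7.31%).

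The gene lower in cold knockouts was Prkaa2, the alpha 2 catalytic subunit of AMP-activated kinase, which phosphorylates and inhibits glycogen synthase in muscle. It had 11.98, 18.1 and 26.4 CPM in cold knockouts, against 18.8, 37.9 and 45.0 CPM in room temperature knockouts, and it fell by 0.95 on the log2 scale (SE 0.18; adjusted p = 0.00472). Cold controls had 20.1, 29.05 and 35.1 CPM and room temperature controls 16.8, 33.2 and 37.5 CPM, a change of -0.04 ± 0.17 (adjusted p = 0.929). The difference between the cold changes was -0.91 ± 0.25, with an unadjusted p of 0.00104 and an adjusted p of 0.452, so it did not pass over all genes. Averaged over genotypes, 5.65% of all tested genes were called and 3.67% were called higher. Of 12 kinase genes tested in this list, averaged over genotypes, Prkaa2 fell (-0.50 ± 0.13, adjusted p = 0.0141) while 2 rose.

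Those 2 were Prkaca, the catalytic subunit of protein kinase A, which activates phosphorylase kinase (0.36 ± 0.08, adjusted p = 0.00575), and Prkab1, a beta subunit of AMP-activated kinase, whose beta subunits bind glycogen (0.28 ± 0.08, adjusted p = 0.0335). Prkaca averaged 426 ± 67.0 CPM in cold knockouts and 347 ± 47.8 CPM in room temperature knockouts, and 436 ± 43.2 CPM in cold controls and 326 ± 47.5 CPM in room temperature controls (SD). Against 3.67% of all tested genes called higher over both genotypes, 1 of 6 genes of glucose uptake and phosphorylation rose. This was Slc2a4, the insulin-responsive glucose transporter GLUT4 (0.24 ± 0.07, adjusted p = 0.0416). It averaged 1138 ± 138 CPM in cold knockouts and 889.9 ± 92.9 CPM in room temperature knockouts, and 1123 ± 125 CPM in cold controls and 1025 ± 146 CPM in room temperature controls. The averaged calls of Slc2a4 and Prkab1 ended in 14 and 11 of 31 single omissions, and those of Prkaa2 and Prkaca in none.

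Of the 9 further genes of synthesis, breakdown and phosphorylase kinase 0 were called by edgeR or DESeq2 with all 31 libraries, in the 6 comparisons. Of all tested genes edgeR called from 0% to 5.65% in these comparisons. For cold, Phkb had an unadjusted p under 0.05 in knockouts and Gaa, the lysosomal glucosidase, in controls (-0.87 ± 0.31, adjusted p = 0.181). Gaa stood at 176 to 291 CPM in cold controls, against 997 and 1146 CPM in room temperature control rats 1 and 2 and 164 to 249.5 CPM in the other 6. Without rats 1 and 2 its change was 0.15 ± 0.13 (adjusted p = 0.607). Of 4 further synthesis genes the cold changes in knockouts ran from -0.22 to 0.22, with Gyg1, the glycogenin primer, at 0.22 ± 0.13 (adjusted p = 0.455) and at 0.23 ± 0.12 in controls (adjusted p = 0.399). The beta subunit of phosphorylase kinase, Phkb, was at -0.52 ± 0.18 in cold knockouts (adjusted p = 0.143) and -0.02 ± 0.17 in cold controls (adjusted p = 0.968). Phkg2, the catalytic subunit best known from liver, was at 0.46 ± 0.26 in cold knockouts (adjusted p = 0.433) and 0.09 ± 0.25 in cold controls (adjusted p = 0.89). Without control rats 1 and 2 Phkg2 was at 0.52 ± 0.22 in cold controls (adjusted p = 0.323 by edgeR). Over both genotypes Phkg2 then passed at 0.49 ± 0.15 (adjusted p = 0.0452), against 0.27 ± 0.18 with all rats (adjusted p = 0.426). For cold, edgeR called 1.38% of all tested genes in knockouts, 0.853% in controls and 5.65% over both genotypes. Of 7 protein phosphatase 1 and glycogen targeting genes, 2 glycogen quality control or binding genes and 9 identifiers of adrenergic, insulin and calcium signals, 0 were called by edgeR with all 31 libraries, in either genotype or over both. DESeq2 called 1 of them, Ppp1r3a, which anchors the phosphatase to muscle glycogen, lower in cold knockouts, where edgeR gave -0.48 (adjusted p = 0.0539). Without control rats 1 and 2 edgeR also called Ppp1r3a lower in cold knockouts (-0.47 ± 0.11, adjusted p = 0.0129). Over both genotypes it then passed as well (-0.25 ± 0.08, adjusted p = 0.0405).

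**Figure D4:**
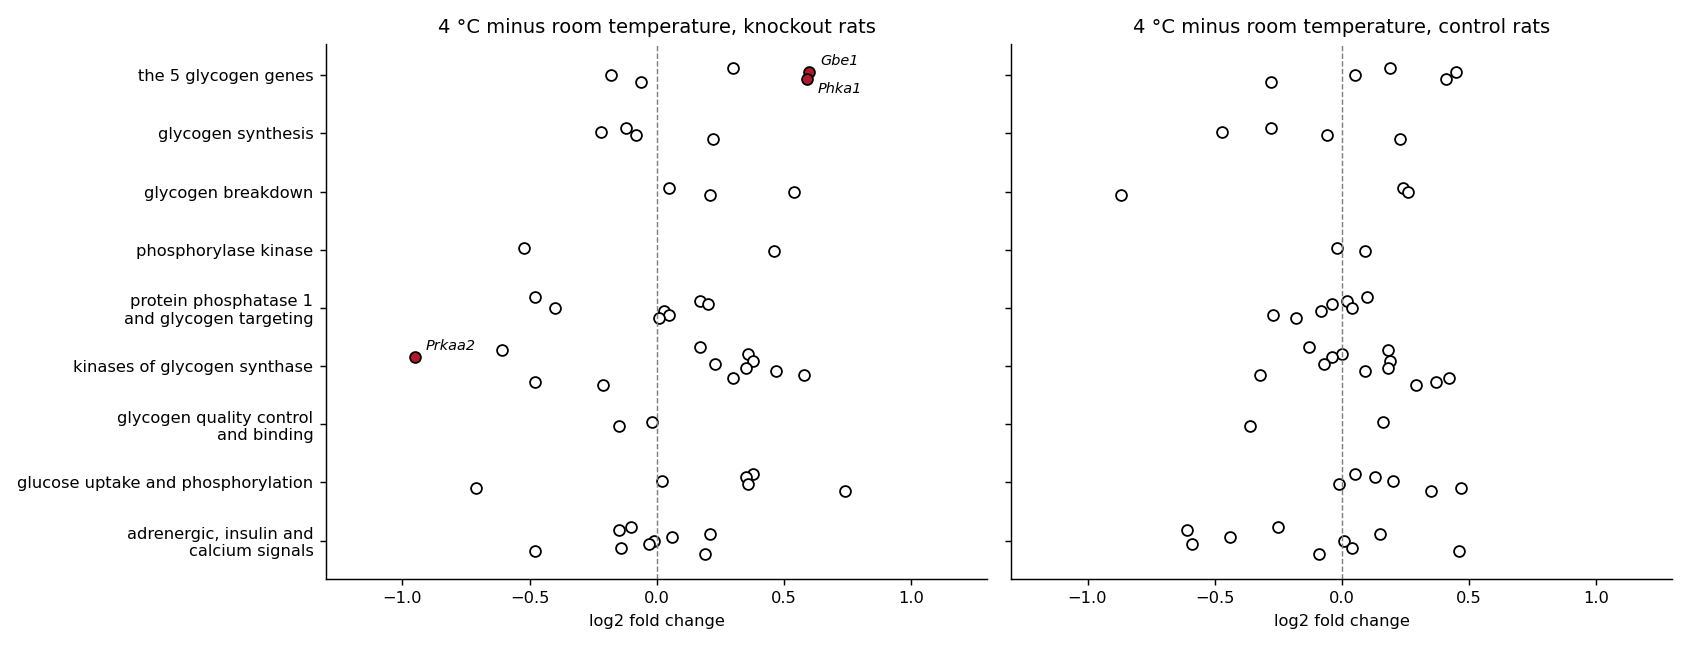
Log2 fold change with cold of every tested gene of the 5 members and the 8 pathway lists (1 point per gene identifier, horizontal axis), in knockouts and in controls; red points passed at adjusted p under 0.05 over all genes. In knockouts Gbe1 and Phka1 lie to the right and Prkaa2 (-0.95) to the left, and in controls no point is red.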

How the data were processed

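The members, gene lists and tests were chosen with earlier results of these data known. Gene symbols came from the deposited annotation. Per the labels' protocols, total RNA was made into QuantSeq 3' libraries. The raw table holds counts of reads per gene as deposited by the authors. A second table holds signal, the authors' counts divided by size factors, which matched library-wise rescaling of the raw counts within a relative 5.23e-10 and served for symbols only. Build Rnor 6.0 and DESeq2 1.22.2 are named per the submitters' processing notes; no source used here gives the aligner or counting tool. The lowest total of a listed gene was 93 counts over the 31 libraries. Gene positions and promoter sequences are RefSeq's, GRCr8.

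The test was edgeR's quasi-likelihood test (edgeR 4.0.16, R 4.3.3), after filterByExpr (minimum count 10, minimum total 15; 10082 genes kept) and TMM scaling, fitted to all 31 libraries by group (27 residual degrees of freedom). Log2 levels used a prior count of 2. P-values are two-sided, adjusted by Benjamini-Hochberg within each of 6 contrasts. Alternatives were RLE scaling, DESeq2 1.42.0, no filter, 1 surrogate variable (sva 3.50.0), a fit to the compared libraries only, and omissions of libraries. The fit of pathway genes without control rats 1 and 2 was chosen after seeing the data. The test was checked on simulated counts with changes set in the cold knockouts. It recovered 40.3% of genes changed 1.5-fold and 86.6% of those changed 2-fold, so a change of 1.5-fold was often not called. Named genes are the 5 members, the pathway genes called in any contrast and the 3 genes most like each member (1 of them is not reported here); Gyg1, Phkb, Phkg2, Gaa, Ppp1r3a and the cell type markers were added after their values were seen. Libraries of a group differed by more than sampling noise (lowest chi-square per degree of freedom 5.62). The labels give each animal its own number and name no litter or batch, so a batch that follows group cannot be told apart from it.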

Additional observations from a re-analysis of the deposited data

Results flagged for a closer look

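Of 36 combinations of gene and group tested, 6 held a library whose gap to the nearest other was large for the range of its group (Dixon's 95% value); chance gives about 1 in 20. Gbe1 stood at 235.551 CPM in cold knockout 29, above the next rat at 165 CPM. Pygm stood at 2015.23 CPM in cold control 17, above the next at 1461 CPM. Prkaa2 was low in cold control 16, at 20.1105 CPM, below the next at 28.2 CPM. Prkab1 was low in room temperature knockout 14, at 25.1988 CPM, below the next at 31.1 CPM. Prkaca was low in room temperature control 1, at 223.022 CPM (next 309.9 CPM), and high in room temperature knockout 15, at 447.092 CPM (next 357 CPM).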

How the results depend on the processing

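Gbe1 and Phka1 kept their rise over both genotypes, and stayed called, under RLE scaling, DESeq2, no filter, 1 surrogate variable, without control rats 1 and 2, and in all 31 single omissions. RLE scaling and no filter moved no count by over 1.5 times. No paired analysis was possible because each animal has a number of its own and no number recurs between groups.

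Over all genes, the calls were 139 for cold in knockouts, 86 for cold in controls, 0 and 1 for genotype at room temperature and in the cold, 0 for the difference between cold changes and 570 for cold over both genotypes. With 1 surrogate variable they were 658 for cold in knockouts, 382 for cold in controls (159 higher, 223 lower), 8 for genotype in the cold and 1268 for cold over both. Of the members, 2 were then called in cold controls, Gbe1 (0.48) and Phkg1 (-0.38), and 3 over both genotypes, with Phkg1 at -0.24; Pygm in cold controls was at -0.01 and Phkg1 for genotype in the cold at 0.02. DESeq2 called 328 for cold in knockouts, 220 for cold in controls, 1 for genotype at room temperature, 8 for genotype in the cold and 1 for the difference. With only the compared libraries, 0 members and 53 genes were called for cold in knockouts and 0 genes for genotype in the cold. Without control rats 1 and 2 the calls were 379 for cold in knockouts, 38 in controls and 4 for genotype in the cold; Gys1 and Pygm for genotype at room temperature were at 0.25 and 0.01, and the difference for Gys1 at -0.30. The causes were not tested.

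Leaving out 1 library at a time gave 0 to 2 members and 56 to 231 genes for cold in knockouts (56 without room temperature knockout 14), 36 to 154 genes in controls, 0 to 1 for genotype at room temperature, 0 to 3 in the cold and 0 to 1 for the difference. Changes near 0 turned sign: Phkg1 in cold knockouts (-0.16 to 0.01), Pygm (-0.06 to 0.09) and Prkaa2 (-0.13 to 0.02) in cold controls, Gys1 (-0.25 to 0.01) and Gbe1 (-0.11 to 0.03) for genotype at room temperature, Gys1 (-0.26 to 0.09), Phkg1 (-0.12 to 0.03), Prkaca (-0.07 to 0.01) and Slc2a4 (-0.03 to 0.05) for genotype in the cold, and the difference for Gys1 (-0.08 to 0.27). Phkg1 had the fewest counts of the members, 158 to 363 per library. Its cold change in knockouts had an SE of 0.17, against 0.26 for Gys1.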
